A study of Caenorhabditis elegans with 3 samples.

Results

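Chromosome V of Caenorhabditis elegans is an autosome, and its expressed loci were described here in 3 zones, a left arm, a centre and a right arm. A locus was taken when the table placed it on V, gave it a gene identifier and listed it at 1 FPKM or more on average over the 3 genotypes. FPKM counts sequenced fragments relative to transcript length and library size. Of the 40669 loci in the table, 15628 met the level and identifier conditions on any chromosome and 3157 of these lay on V. The left arm, up to 6 Mb by the deposited start, held 756 loci. The centre, from 6 to 16 Mb, held 1759 loci, and the right arm, from 16 Mb on, held 642 loci.

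Poly(A) RNA of embryos was sequenced from 3 genotypes, and the deposited table gives 1 pooled FPKM value per genotype and locus. Wild type was strain N2. The strain labelled TY5827, called 8rex deletion here, lacks 8 rex sites of the X chromosome, and its alleles are rex-8(y737), rex-14(y738), rex-32(y572), rex-33(y743), rex-35(y740), rex-43(y741), rex-47(y671) and rex-48(y742). The third genotype, called DCC mutant here, was strain TY0810, labelled sdc-2(y93, RNAi), in which the dosage compensation complex (DCC) is impaired. HT115 feeding bacteria were the food of all 3 genotypes: wild type and the 8rex deletion received the empty vector pL4440, and the DCC mutant received sdc-2 RNAi. Each value of wild type and of the 8rex deletion combined 5 replicates, of which 2 were mixed-stage and 3 older embryos. The DCC mutant value combined 3 replicates, 2 of mixed-stage and 1 of older embryos, so embryo stage and genotype cannot be told apart in any DCC mutant comparison below. Nothing in the labels says whether replicates were separate cultures, so the authors' p-values may measure technical spread. No value below has a standard deviation, the authors' p and q are the sole replicate check, and read numbers per library are unknown. In whole embryos, a lower level cannot be told apart from fewer cells of a type.

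Worm autosomes have a central region rich in conserved and widely expressed genes, flanked by arms with more repeats, more recombination and many recently expanded gene families. Chromosome V holds large clusters of such families, among them chemoreceptors, nuclear hormone receptors, F-box proteins and enzymes that modify foreign compounds. The DCC binds both X chromosomes of XX embryos, is recruited there at rex sites by SDC-2, and lowers X-linked transcription. V carries the DCC subunit gene dpy-21 and her-1, a male-fate gene that SDC-2 is known to repress.

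The targeted gene sdc-2 (WBGene00004746, X, 11522707 to 11533450) had 18.04 FPKM in wild type, 16.01 in 8rex deletion embryos and 10.98 in DCC mutant embryos. For the last difference from wild type, the authors' deposited table gave p = 0.505. A residual transcript level does not measure the protein. Among marker lists, early embryo and germline genes were higher in the DCC mutant at 13 of 13 loci, with a summed level of 671 FPKM in wild type, 703 in 8rex deletion embryos and 1361 in DCC mutant embryos. The 4 body wall muscle genes summed to 562, 610 and 584 FPKM in the same order, and the 4 sperm genes to 0.336, 0.873 and 0 FPKM. Over the 2939 X-linked loci, the DCC mutant differed from wild type by a median of 0.46 on the log2(FPKM + 1) scale.

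The zones of V differed in how much of them was measured above the minimum. The table has 7483 rows on V, of which 34 have no gene identifier, 2373 are 0 in every genotype and 1919 are above 0 but under the minimum. Members made up 42.2% of the identified rows of the left arm, 44.3% of those of the centre and 38.0% of those of the right arm. By the annotation, the left arm has 228.5 protein-coding genes per Mb, the centre 256.9 and the right arm 214.1. Of these genes, 59.1% lay in a member locus in the centre, against 49.7% in the left arm and 49.2% in the right arm. Right-arm members included 92 pseudogenes, more than the 37 of the left arm and the 53 of the centre, although the right arm has the fewest loci. The centre held 324 of the 435 genes annotated as ncRNA among the members. A member locus held several genes in 243 cases (7.70%), for which a single FPKM was deposited, so such loci are named by all their genes.

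The level minimum separated loci of nearly equal level. Just inside it, W05B10.6 had a mean of 1.0003 FPKM, and just outside it fil-1 had a mean of 0.997 FPKM. The last loci of the left arm by deposited start included cpi-2, at 267 FPKM in wild type, 219.9 in 8rex deletion embryos and 228 in DCC mutant embryos, and the first of the centre included seip-1, at 35.2, 35.2 and 40.0 FPKM. On the right-hand limit, 2 nuclear hormone receptor genes stood on either side, nhr-50 in the centre (13.7, 13.7 and 14.7 FPKM) and nhr-63 in the right arm (12.4, 7.06 and 14.1 FPKM).

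Loci of the centre had the highest typical level and those of the right arm the lowest, in all 3 genotypes. The median FPKM of the centre was 9.97 in wild type, 10.5 in 8rex deletion embryos and 7.96 in DCC mutant embryos. The left arm stood at 6.98, 7.36 and 5.35 FPKM and the right arm at 4.92, 5.66 and 4.29 FPKM, in the same order of genotypes. All of V had a median of 7.69, 8.36 and 6.31 FPKM, below the 16.5, 16.5 and 15.7 FPKM of autosomes I to IV. X stood at 9.88, 10.9 and 11.9 FPKM, so V was below X in each genotype. V loci summed to 16.6% of all deposited FPKM in wild type, 15.9% in 8rex deletion embryos and 14.7% in DCC mutant embryos. These shares depend on the other chromosomes. In the same order X held 11.5%, 11.5% and 15.8%, and autosomes I to IV held 71.3%, 71.9% and 69.0%. Of the 3157 members, 268 (8.49%) were listed at 0 in wild type, 224 (7.10%) in 8rex deletion embryos and 433 (13.7%) in DCC mutant embryos. Over all 15628 loci the shares were close to these, at 8.18%, 6.94% and 12.5%. That background includes X, with 14.8%, 11.6% and 18.6%. Autosomes I to IV had 6.04%, 5.44% and 10.3%, so V stood above them in each genotype.

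**Figure D1:**
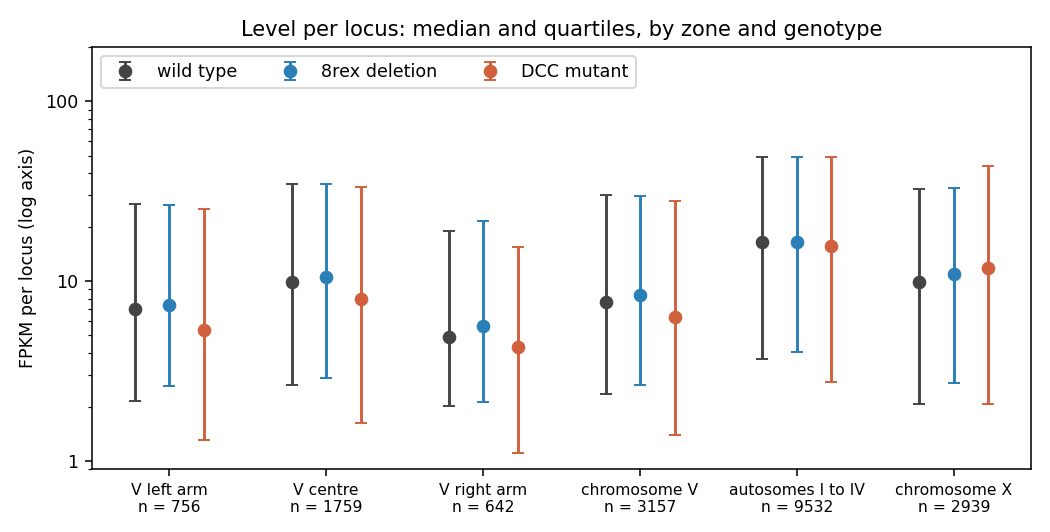
Median FPKM per locus (points, log axis) with lower and upper quartiles (bars) in each zone of V, all of V, autosomes I to IV and X, for the 3 genotypes; n is the number of loci. The centre of V is highest and the right arm lowest of the 3 zones in every genotype, and each zone of V has its lowest median in the DCC mutant.

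The most abundant loci of the left arm carried much of its RNA: the 10 highest made up 51.9% of the zone's FPKM sum in wild type. The locus that joins nas-9, C02E7.7 and F41F3.3 stood at 10046.9 FPKM in wild type, 9607 in 8rex deletion embryos and 6022 in DCC mutant embryos. Its neighbour C02E7.6 stood at 6125, 5600.3 and 5318 FPKM. Ribosomal protein gene rps-27 stood at 2263, 2055 and 1932 FPKM, calmodulin gene cmd-1 at 806, 1011 and 989 FPKM, and unc-60, which encodes actin-severing ADF/cofilin, at 887, 884 and 843 FPKM. In the centre the highest single-gene loci were the cuticle collagen gene sqt-3, at 4637, 4604 and 3347 FPKM, and the ribosomal protein genes rpl-39, at 4128, 3545 and 3100.3 FPKM, and rpl-38, at 3309, 2941 and 2947 FPKM. The locus of F53F1.4 and cut-2, which encodes a cuticlin of the larval cuticle, stood at 3232, 3053 and 2232 FPKM. Right-arm levels were lower at the top, led by txt-14 at 1160.4, 1142 and 1177 FPKM and the ribosomal protein gene rpl-2 at 1026, 989.7 and 903 FPKM. The right-arm gene Y43F8B.2 stood at 441, 438 and 250.2 FPKM. None of these loci had a p under 0.05 in the authors' deposited table in either comparison.

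Comparing the DCC mutant with wild type addresses what loss of the complex does outside X. Loci of V stood slightly lower in the DCC mutant. Both arms had a lower median than the centre, a gap that nearly closed for the right arm at a higher level minimum. The median difference on the log2(FPKM + 1) scale, which understates differences of low loci, was -0.09 over V (quartiles -0.55 and 0.23). It was -0.15 in the left arm, -0.05 in the centre and -0.13 in the right arm. The left arm minus the centre was -0.10 and the right arm minus the centre -0.08. Among loci averaging 5 FPKM or more the medians were -0.09 in the left arm, -0.025 in the centre and -0.037 in the right arm, and the right arm minus the centre was -0.013. Autosomes I, II, III and IV had medians of -0.00, -0.02, -0.02 and -0.06. A difference above 0 was found at 38.7% of V loci (1221 loci), against 48.0% of all 15628 loci and 44.2% of those on autosomes I to IV. The left arm had 36.4% above 0, the centre 39.7% and the right arm 38.6%. With differences centred on the median difference of all autosomal loci, the median was -0.05 over V and -0.01 in the centre, and 46.3% of V loci were above 0. Without replicate values, whether these differences between chromosomes and zones exceed the spread between replicates was not tested.

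**Figure D2:**
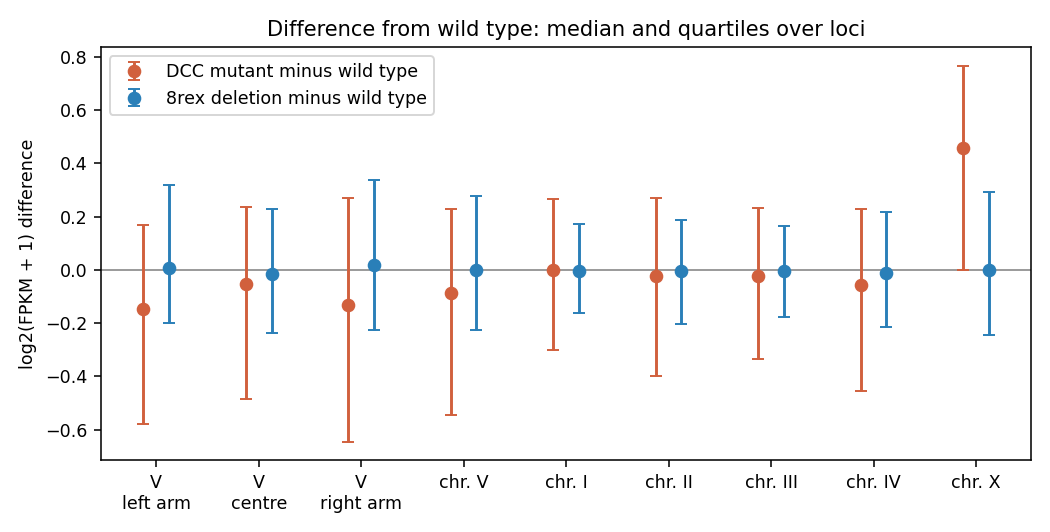
Median difference per locus from wild type on the log2(FPKM + 1) scale (points) with lower and upper quartiles (bars), for each chromosome and each zone of V, in both comparisons. In the DCC mutant V and its zones lie below 0, the left arm lowest at -0.15, and X lies at 0.46; in the 8rex deletion every zone of V lies within 0.02 of 0.

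The difference between arms and centre depended on level, and not in the same way in both arms. Among loci with a mean from 1 to 5 FPKM, the median difference of the DCC mutant was -0.24 in the left arm, -0.13 in the centre and -0.27 in the right arm, and -0.18 on autosomes I to IV. From 5 to 20 FPKM it was -0.21, -0.07 and -0.05 in the 3 zones and 0.00 on autosomes I to IV. At 20 to 100 FPKM the 3 zones stood at -0.06, -0.00 and -0.03. Above 100 FPKM they stood at -0.03, -0.02 and -0.10, the last over 26 right-arm loci. Loci with a single coding gene had medians of -0.13, -0.07 and -0.14 in the left arm, centre and right arm. The 643 loci without a coding gene spread widely, with a lower quartile of -2.40.

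Along the chromosome, 20 of 21 windows of 1 Mb had a median below 0 in the DCC mutant. The exception, at 0.00, lay in the centre. All 6 left-arm windows were below 0, from -0.38 to -0.02, and all 5 right-arm windows, from -0.17 to -0.08. Centre windows ranged from -0.14 to 0.00. In the 8rex deletion 9 of the 21 windows were below 0 and the range was -0.05 to 0.08.

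**Figure D3:**
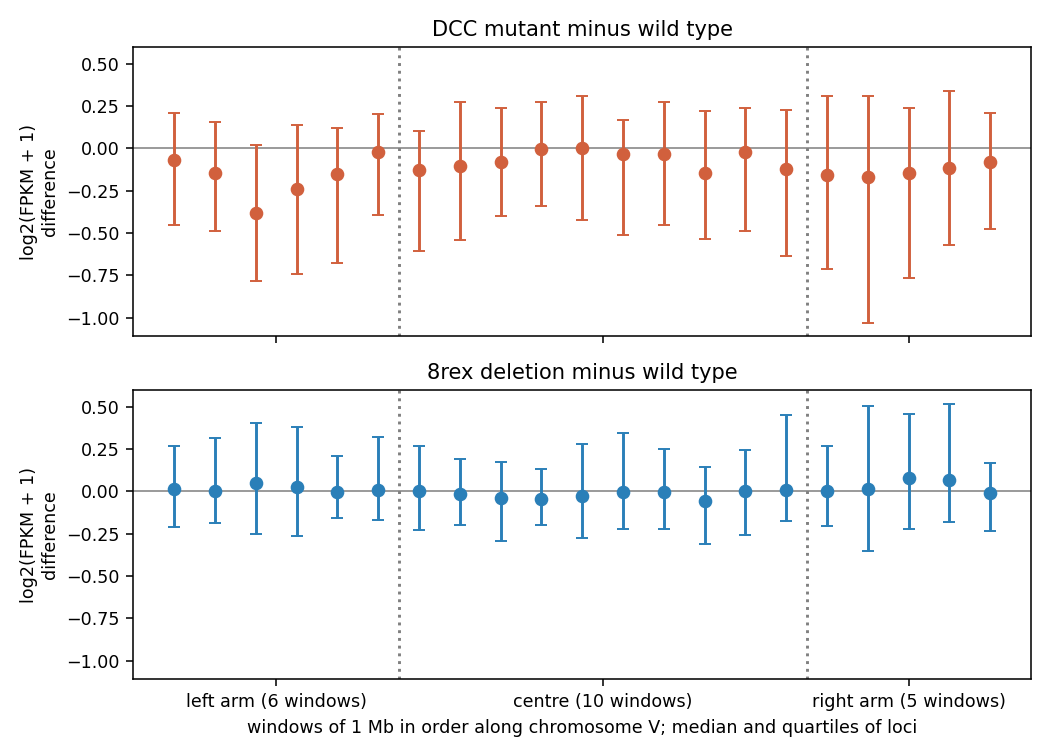
Median difference from wild type (points) with lower and upper quartiles (bars) on the log2(FPKM + 1) scale in the 21 windows of 1 Mb along V, in order from the left end, with dotted lines between zones. The DCC mutant points reach their lowest value, -0.38, in the third window of the left arm, and the 8rex deletion points stay between -0.05 and 0.08.

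Large differences were more often downward than upward on V. At least 2-fold lower in the DCC mutant on the log2(FPKM + 1) scale were 477 loci (15.1%), against 12.1% of all loci. At least 2-fold higher were 230 loci (7.29%), against 8.55% of all loci. That background includes X, where 12.39% were lower and 15.96% higher. Autosomes I to IV had 10.98% lower and 6.68% higher, so V stood above them in both directions. Of the 477 lower loci, 265 had a listed 0 for the DCC mutant. A listed 0 for wild type was found at 111 of the 230 higher loci. A listed 0 can be a failed estimate, and whether any here was one was not tested. In the DCC mutant 40 loci of V were at 0 with 10 FPKM or more in both other genotypes, against 15 such loci for wild type and 12 for the 8rex deletion. Among the 2611 V loci above 0 in both genotypes, 8.12% were at least 2-fold lower and 4.56% higher on the same scale, against 5.14% and 4.85% on autosomes I to IV. Without the pseudocount, 355 of these 2611 loci were at least 2-fold lower and 194 higher. In the right arm 115 loci (17.9%) were at least 2-fold lower and 47 higher.

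By the authors' test, 43 of the 1649 V loci they tested had a p under 0.05 in the DCC mutant, 18 higher and 25 lower. These are 2.61% of the tested loci, beside a background of 2.07% over all chromosomes. On V 1.09% were higher and 1.52% lower, beside a background of 1.39% for higher and 0.684% for lower. That background includes X, with 3.95% higher, 0.125% lower and 4.08% in either direction. Autosomes I to IV had 0.814% higher, 0.607% lower and 1.42% in either direction. The left arm had 6 higher and 4 lower of 388, the centre 9 and 14 of 974, and the right arm 3 and 7 of 287. No q was under 0.05 in the authors' deposited table: the smallest, 0.0632, was shared by 7 loci, of which adh-1, far-3 and the locus of srh-2 and C05E4.16 lie on V. All directions below therefore rest on unadjusted p-values.

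**Figure D4:**
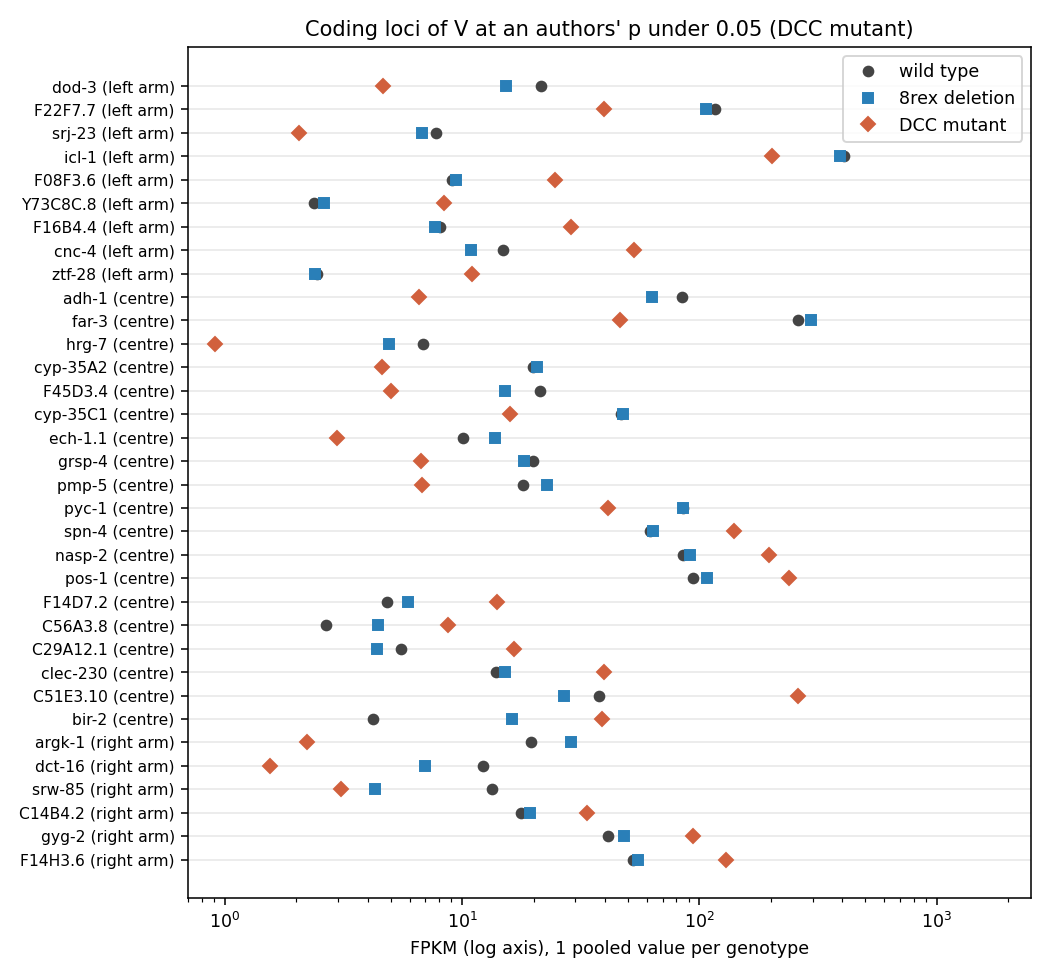
FPKM on a log axis of the 34 V loci with a single coding gene and an authors' p under 0.05 between DCC mutant and wild type, 1 pooled value per genotype, ordered by zone. The 8rex deletion lies within 2-fold of wild type at 32 of the 34 loci, the exceptions being bir-2 and srw-85. Most V loci do so. Of the 2734 above 0 in wild type and the 8rex deletion, 209 are at least 2-fold higher and 150 lower, without a pseudocount.

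Coordinates given with a gene are 1-based, from the Ensembl annotation of the ce11 assembly. The loci at such a p are grouped by known role, a grouping made after their values were seen. By the naming rule, adh-1, hrg-7 and far-3 were the 3 lowest single coding genes of the centre at such a p in the DCC mutant. The gene adh-1, encoding an alcohol dehydrogenase (WBGene00010790, protein-coding, V, 11888248 to 11889650, plus strand), stood at 84.8 FPKM in wild type, 63.3 in 8rex deletion embryos and 6.56 in DCC mutant embryos. Its DCC mutant level was 12.9-fold below wild type, at p = 5e-05 in the authors' deposited table, the smallest p there. The gene far-3 (WBGene00001387, V, 12996787 to 12997522, minus strand) encodes a fatty acid and retinol binding protein and stood at 260.3, 295.7 and 46.4 FPKM, 5.61-fold lower in the DCC mutant, also at p = 5e-05 in the authors' deposited table. One end of it overlaps far-5 on the other strand, which stood at 3.79, 6.74 and 5.52 FPKM, and without stated strand information reads of the overlap cannot be assigned. The secreted heme-signalling protein gene hrg-7 stood at 6.86, 4.89 and 0.909 FPKM, with p = 0.0144 in the authors' deposited table. The DCC mutant was the low genotype at adh-1, far-3 and hrg-7, and the 8rex deletion lay within 2-fold of wild type at each.

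Among other lower loci are 5 genes with known roles in metabolism. On the left arm icl-1, encoding an enzyme of the glyoxylate cycle, stood at 406, 391 and 202 FPKM. In the centre pyc-1, encoding pyruvate carboxylase, stood at 85.6, 85.4 and 41.3 FPKM. The peroxisomal transporter gene pmp-5 stood at 18.0, 22.8 and 6.77 FPKM, and ech-1.1, encoding an enzyme of fatty acid oxidation, at 10.1, 13.7 and 2.97 FPKM. In the right arm argk-1, encoding arginine kinase, stood at 19.5, 28.8 and 2.21 FPKM. The authors' deposited table gave p = 0.0032 for icl-1, 0.0111 for pyc-1, 0.0219 for pmp-5, 0.0062 for ech-1.1 and 0.0027 for argk-1. The opposite direction was seen at gyg-2, encoding glycogenin, which starts glycogen synthesis: it stood at 41.2, 48.0 and 93.8 FPKM, with p = 0.0277 in the authors' deposited table.

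Further loci lower in the DCC mutant included 2 on the left arm. F22F7.7 stood at 116.6, 106.4 and 39.7 FPKM (p = 0.00245 by the authors' deposited table). The gene dod-3, named as acting downstream of DAF-16, stood at 21.5, 15.4 and 4.62 FPKM (p = 0.0299 by the authors' deposited table). In the right arm dct-16 stood at 12.2, 6.95 and 1.55 FPKM (p = 0.0298 by the authors' deposited table). Wild type was the highest genotype at all 3 loci, and the 8rex deletion lay between. Both K08B12.11 in the centre and Y43F8C.9 in the right arm were listed at 0 in the DCC mutant, against 26.9 and 8.68 FPKM in wild type. The right-arm locus that joins C31G12.4 and linc-98 stood at 24.6, 66.3 and 0.864 FPKM (p = 0.0345 by the authors' deposited table), a spread over all 3 genotypes. Of 10 further loci at such a p, 6 were lower, with differences from -1.91 to -1.38 on the log2(FPKM + 1) scale, and 4 were higher, from 1.34 to 1.48.

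Genes known from the early embryo were among the higher loci of the centre. The early embryo and germline marker list given above holds 4 loci of V, pos-1 and spn-4 among them; its other 9 loci were also higher in the DCC mutant, with sums of 456 FPKM in wild type, 462 in 8rex deletion embryos and 878 in DCC mutant embryos. The part of embryo stage in these differences was not tested. The maternal RNA-binding protein gene pos-1 (WBGene00004078, V, 8414086 to 8415254, plus strand), needed for germline and posterior fates, stood at 93.6 FPKM in wild type, 107.6 in 8rex deletion embryos and 239 in DCC mutant embryos. spn-4, another maternal RNA-binding protein gene, stood at 61.6, 63.99 and 139.9 FPKM. nasp-2, named as a homologue of the NASP histone chaperone, stood at 85.1, 90.9 and 195.8 FPKM. The authors' deposited table gave p = 0.00665 for pos-1, 0.0122 for spn-4 and 0.00675 for nasp-2. The cell-cycle genes cyb-3 and air-1 each had a p above 0.05 in the authors' deposited table: cyb-3, encoding a B-type cyclin, stood at 274, 268 and 454 FPKM (p = 0.107) and air-1, encoding an Aurora kinase, at 45.6, 42.4 and 74.9 FPKM (p = 0.178).

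Higher by larger folds was bir-2 (WBGene00000250, V, 13568850 to 13570030, plus strand), which encodes a protein with BIR repeats. It stood at 4.20 FPKM in wild type, 16.3 in 8rex deletion embryos and 38.7 in DCC mutant embryos. Its p by the authors' deposited table was 0.002 for the DCC mutant and 0.0490 for the 8rex deletion, and both comparisons use the same wild-type value. C51E3.10 stood at 37.5, 26.8 and 259.9 FPKM (p = 0.0167 by the authors' deposited table) and C56A3.8 at 2.65, 4.40 and 8.72 FPKM (p = 0.0283 there). On the left arm the locus of srh-2 and C05E4.16 stood at 2.47, 2.61 and 50.5 FPKM, 20.4-fold higher in the DCC mutant, at p = 5e-05 in the authors' deposited table. The caenacin antimicrobial peptide gene cnc-4 stood at 14.9, 10.9 and 53.2 FPKM, F16B4.4 at 8.02, 7.71 and 28.7 FPKM, and ztf-28, encoding a zinc finger protein, at 2.45, 2.39 and 10.97 FPKM. In the right arm F14H3.6 stood at 52.6, 55.2 and 129.6 FPKM and C14B4.2 at 17.8, 19.2 and 33.5 FPKM. Each of these 5 loci had a p between 0.0256 and 0.0404 in the authors' deposited table.

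Gene families were counted over loci that hold a single gene. A family member passes the level minimum more easily where a genotype is high, so the counts that follow are descriptions and support no direction by themselves. Chromosome V holds 876 of the 1253 chemoreceptor rows of the table (69.9%), and 120 of those on V met the minimum. In the DCC mutant 26 of these 120 stood above wild type and 94 below, with a median difference of -0.48 on the log2(FPKM + 1) scale; over all chromosomes the family's median was -0.45. In the 8rex deletion the median was 0.34, and 0.34 over all chromosomes as well. Levels were low, with a median of 1.87 FPKM in wild type, 2.55 in 8rex deletion embryos and 0.971 in DCC mutant embryos. The authors tested 10 of the 120, and 2 of these had a p under 0.05, both lower, beside 2.61% of all tested V loci. They were srj-23 on the left arm, at 7.75, 6.78 and 2.05 FPKM (p = 0.0150 by the authors' deposited table), and srw-85 on the right arm, at 13.4, 4.29 and 3.07 FPKM (p = 0.00685 there). Where a chemoreceptor gene has a close copy, reads may be split between the copies. The most abundant were srr-4, at 50.3, 43.1 and 42.6 FPKM, and sru-40, at 31.2, 0.503 and 12.5 FPKM.

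Nuclear hormone receptors, ligand-regulated transcription factors that are expanded in nematodes, had 148 of their 239 rows on V. Of the 102 that met the minimum, 24 stood above wild type in the DCC mutant and 78 below, with a median of -0.28 on V and -0.26 over all chromosomes. Their 8rex deletion median was -0.03. The left-arm gene nhr-86 stood at 64.8, 75.6 and 47.5 FPKM, and nhr-114 stood at 48.5, 46.8 and 35.5 FPKM. In the right arm nhr-70 stood at 39.6, 46.9 and 41.9 FPKM. F-box genes, which encode adaptors of ubiquitin ligases, differed in direction: of 40 on V, 24 stood above wild type and 16 below in the DCC mutant, with a median of 0.21 on V and 0.32 over all chromosomes. Their 28 right-arm members had a median of 0.40, against -0.13 for 4 in the left arm and -0.01 for 8 in the centre. The highest 3 of the right arm differed in direction: fbxa-210 stood at 9.10, 12.8 and 15.6 FPKM, fbxb-115 at 12.2, 10.7 and 10.6 FPKM, and fbxb-7 at 6.06, 11.1 and 10.9 FPKM. The most abundant F-box member of V, fbxa-137 on the left arm, stood at 33.3, 26.5 and 25.8 FPKM.

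Members of 3 enzyme families that modify foreign compounds were counted in the same way, beside 1781 of all 3157 V members below wild type in the DCC mutant. Cytochrome P450 genes had 39 of 65 rows on V and 19 members, of which 4 stood above wild type and 15 below in the DCC mutant, with a median of -0.50 on V and -0.49 over all chromosomes. In the centre cyp-35A2 stood at 19.9, 20.7 and 4.57 FPKM and cyp-35C1 at 46.9, 47.8 and 15.9 FPKM, with p = 0.00965 and 0.0208 in the authors' deposited table. These were the 2 of 8 tested P450 members with a p under 0.05, beside 2.61% of all tested V loci. With 8 tested members, nothing is read from this share. cyp-42A1 of the right arm stood at 57.3, 63.4 and 50.2 FPKM. The 19 UDP-glucuronosyltransferase members had a median of -0.25, and -0.25 over all chromosomes, with 6 above wild type and 13 below; none of the 6 tested had a p under 0.05 in the authors' deposited table. The 5 glutathione S-transferase members had a median of -0.71, against -0.25 over all chromosomes; all 5 stood below wild type, each averaged under 5 FPKM, and none was tested by the authors. In the 8rex deletion the medians of these 3 families on V were 0.03, 0.04 and -0.02.

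Structural and secreted proteins varied. The 14 single-gene members with a col name, which encode cuticle collagens, had a median of -0.72 in the DCC mutant, with 3 above and 11 below wild type, against -0.24 over all chromosomes. Collagen genes with other names, such as sqt-3 and lon-3, are not in this count. The mean levels of the 14 col members had a median of 2.30 FPKM, against 7.60 FPKM over all chromosomes. The authors tested 5 of the 14 in the DCC mutant, and none had a p under 0.05 in their deposited table. Among the col members, col-10, the most abundant, stood at 33.4, 35.7 and 33.5 FPKM and col-43 at 19.8, 12.3 and 13.2 FPKM. Hedgehog-related genes, which encode secreted proteins, had a median of -0.25 over 16 members, and grl-7 stood at 228, 208 and 169 FPKM. The 10 transthyretin-related members had a median of -0.41, against 0.17 over all chromosomes. C-type lectins, carbohydrate-binding proteins often linked to immunity, had a median of -0.10 over 26 members, and clec-230 of the centre stood at 13.9, 15.2 and 39.7 FPKM (p = 0.0330 by the authors' deposited table). The 7 ribosomal protein members lay close together, with a median of -0.18 on V and -0.22 over all chromosomes. Potassium channels had a median of -0.21 over 11 members. The 8 histone members, of 25 single-gene histone rows on V, had a median of 0.51, against 0.83 over all chromosomes. Their mean levels had a median of 3.58 FPKM, and none of the 3 tested had a p under 0.05 in the authors' deposited table. The most abundant of them, his-35, stood at 286, 292 and 307 FPKM. Where a histone gene has near-identical copies, reads may be split between them. The 8 homeobox members had a median of 0.28, among them ceh-32 at 132, 128 and 128 FPKM. None of the 13 astacin protease rows with a single gene and none of the 167 piRNA rows on V met the minimum. Over all chromosomes 14 of 33 such astacin rows and 3 of 8704 such piRNA rows did, so the piRNA count is not particular to V.

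**Figure D5:**
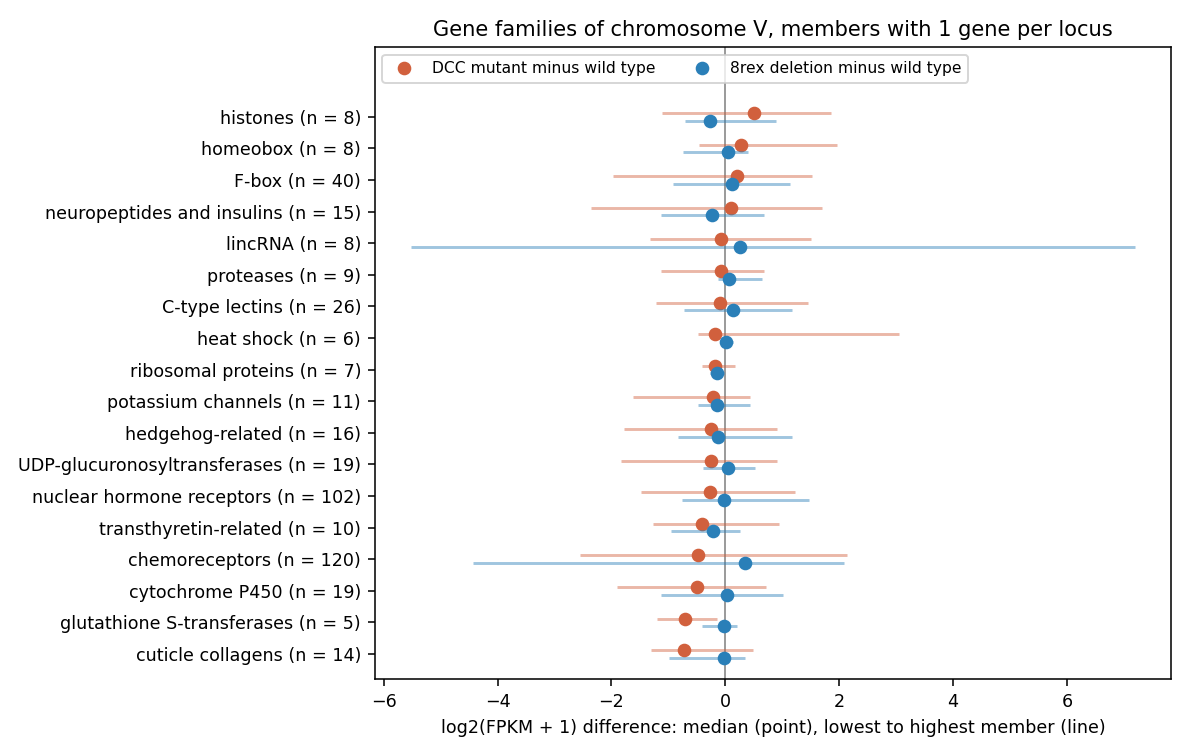
Differences from wild type on the log2(FPKM + 1) scale for families with single-gene members on V: points are medians over members, lines run from the lowest to the highest member, and n is the number of members. Cuticle collagens, counted here by their col names, (-0.72) and glutathione S-transferases (-0.71) are lowest in the DCC mutant and histones (0.51) highest; long lines for lincRNA include loci listed at 0 in a genotype.

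A list of well-studied genes, chosen with results of these data known, held 49 genes with a row on V. Of these, 47 lay in 46 member loci, and far-4 and end-3 were under the minimum. In the DCC mutant 30 loci (65.2%) differed from wild type by less than 0.5 on the log2(FPKM + 1) scale, against 58.8% of all V members. In the 8rex deletion 42 loci (91.3%) did, against 68.5%. Their medians were 0.07 and 0.03. By the authors' test 6 of 42 tested loci had a p under 0.05 in the DCC mutant, adh-1, far-3, spn-4, pos-1, bir-2 and the locus of srh-2 and C05E4.16, and 1 in the 8rex deletion; since the list was made with results known, nothing is read from this share. The DCC subunit gene dpy-21 stood at 70.4, 66.2 and 63.9 FPKM. The histone methyltransferase gene mes-4, which acts in the germline, stood at 28.7, 23.3 and 34.8 FPKM. The male-fate gene her-1 stood at 48.5 FPKM in wild type, 6.92 in 8rex deletion embryos and 284 in DCC mutant embryos, a spread over all 3 genotypes with p = 0.223 and 0.357 for the DCC mutant and the 8rex deletion in the authors' deposited table. him-5, needed for X-chromosome crossovers, stood at 5.50, 8.76 and 25.7 FPKM (p = 0.29 for the DCC mutant by the authors' deposited table).

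Several markers of differentiated tissues are on V. The muscle myosin gene myo-3 stood at 133, 146 and 130.5 FPKM, the synaptobrevin gene snb-1 at 267, 252 and 299 FPKM, and pha-4, encoding the FoxA factor of the pharynx, at 116.4, 99.6 and 94.3 FPKM. The pharynx list as a whole summed to 363, 329 and 414 FPKM, and 3 of its 5 loci were higher in the DCC mutant. Among these, the X-linked myo-2 stood at 36.2, 42.8 and 93.1 FPKM (p = 0.0015 for the DCC mutant by the authors' deposited table). The intestinal GATA factor gene elt-7 stood at 16.7, 15.5 and 11.51 FPKM, and the gut esterase gene ges-1 at 7.62, 10.3 and 6.29 FPKM. Of the same intestine list, end-1 stood at 1.82, 2.95 and 4.65 FPKM and end-3, under the minimum, at 0.233, 0 and 1.83 FPKM. In the DCC mutant 3 of the 5 loci of this list were higher than in wild type. The intestine list as a whole summed to 61.8, 231.1 and 65.1 FPKM, of which the X-linked locus of elt-2 and elt-4 gave 35.3, 202.3 and 40.8 FPKM. The chaperone gene hsp-90 stood at 817, 830.3 and 780.2 FPKM and the heat-inducible hsp-16.2 at 223, 231 and 199 FPKM. Actin genes are near-identical copies: act-1 stood at 83.7, 78.0 and 84.2 FPKM and the joined locus of act-2 and act-3 at 323, 358 and 438 FPKM. The authors did not test end-1 and end-3. None of the other 9 V loci above had a p under 0.05 in either comparison of the authors' deposited table. The cuticle collagen gene lon-3 stood at 17.3, 18.6 and 52.3 FPKM, against the direction of most col members (p = 0.313 for the DCC mutant by the authors' deposited table).

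Comparing the 8rex deletion with wild type addresses what loss of the 8 rex sites does outside X. The zone medians lay near 0: the median difference on the log2(FPKM + 1) scale was 0.01 in the left arm, -0.01 in the centre and 0.02 in the right arm, and -0.00 over V. Above 0 were 47.8% of V loci, against 47.6% of all loci. Left-arm strata with higher values were loci averaging 1 to 5 FPKM, with a median of 0.18 and 58.3% above 0 among 314 loci, and loci with no protein-coding gene, with a median of 0.28 among 118. At least 2-fold higher were 321 loci (10.2%), against 9.36% of all loci, and at least 2-fold lower were 226 loci (7.16%), against 7.03%. That background includes X, where 14.2% were higher and 10.4% lower. Autosomes I to IV had 7.60% higher and 5.95% lower, so V stood above them in both directions. Wild type was listed at 0 at 198 of the higher V loci, and the 8rex deletion at 152 of the lower V loci. By the authors' test 4 of 1671 V loci were higher at a p under 0.05 and 1 lower, beside a background of 0.288% for higher and 0.171% for lower; no q on V was under 0.05 in the authors' deposited table. The shared wild-type value enters both comparisons.

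The lower locus was ocr-1 in the centre (WBGene00003838, V, 10764366 to 10768590, plus strand), which encodes a TRPV-type cation channel. It stood at 89.9 FPKM in wild type, 0.676 in 8rex deletion embryos and 255.1 in DCC mutant embryos, so all 3 genotypes were far apart. The authors' deposited table gave p = 0.0155 for the 8rex deletion and 0.513 for the DCC mutant. The higher loci besides bir-2 were the joined locus of K04A8.16 and K04A8.17, at 13.0, 114.0 and 30.8 FPKM (p = 0.0165 by the authors' deposited table), C50E3.7, at 0.239, 6.01 and 1.45 FPKM (p = 0.0326 there), and WBGene00005828 in the right arm, at 6.27, 17.7 and 4.03 FPKM (p = 0.0272 there). The 8rex deletion was the highest genotype at these 3 loci and the lowest at ocr-1.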

How the data were processed

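Poly(A) RNA-seq values of 3 genotypes were used, from 1 table of 40669 loci. Per the submitters' processing notes, cutadapt 1.2.1, TopHat2 2.1.1, Cufflinks 2.2.1 and genome build ce11 were used; the sources used here give neither their roles nor the annotation or use of strand. The authors deposited FPKM, 1 value per genotype with replicates already combined, per the file headers. The deposited log2 fold change equalled the log2 ratio of FPKM within 5.2e-05 where both were above 0. A p-value and a q-value were deposited by the authors for each fold change, per the file headers, with no test named; a p of 1 was taken as not tested. Depth is unknown, so no interval of counting error was given.

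A planned linear model over replicates could not be fitted, so medians, quartiles and counts were computed and no test was made. Differences were taken as log2(FPKM + 1) with a minimum mean of 1 FPKM; called means an authors' p under 0.05 or a difference of at least 2-fold. Zones used the deposited start, which is often that of a group of neighbouring loci: 1563 V members share it with another row. Of the 2908 single-gene members found in the Ensembl release 115 annotation, all lay on V and 8 would change zone by annotated start. The members and lists were chosen with earlier results of these data known. Genes were named by a rule: the 5 highest loci per zone, the 3 highest and 3 lowest fold changes per zone and comparison among single coding genes at an authors' p under 0.05, a list of well-studied V genes, and the highest 3 members per family and zone; the other loci with such a p, the loci at the limits and the peptide genes were named after their values were seen. Alternatives were another pseudocount, level minimum, centring, zone limits and locus type. The median step was tested on simulated data. Python 3.11.15, numpy 2.4.6, pandas 2.3.3 and matplotlib 3.10.9 were used.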

Additional observations from a re-analysis of the deposited data

How the results depend on the processing

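Of 164 recomputed values, 132 stayed close to the reported value and 32 did not; no cause was tested. Close means within 1.5 times for a count, and for a median or share within its 95% binomial interval over loci, which describes loci and not replicates. Without a pseudocount, among loci above 0 in both genotypes, 42.4% of V loci were above 0 in the DCC mutant, and the 8rex deletion had a median of -0.011 with 209 loci at least 2-fold higher and 150 lower. At a mean of at least 5 FPKM, the DCC mutant median was -0.047 on V and -0.037 in the right arm, with 135 loci higher, 221 lower and 41.6% above 0; for the 8rex deletion the medians were -0.017 on V and -0.012 in the left arm, with 146 higher, 120 lower and 44.4% above 0. With no filter, 34.3% of V loci were above 0 in the DCC mutant. Centred on the autosomal median, V stood at -0.047 and the centre at -0.015 in the DCC mutant with 46.3% above 0, and the 8rex deletion at 0.0036 with 50.6%. With zone limits at 5 and 17 Mb the left arm stood at -0.21 in the DCC mutant. The next alternatives were chosen after seeing the data. Over single coding genes, 121 loci were higher, 229 lower and 41.2% above 0 in the DCC mutant, and 106 higher and 67 lower in the 8rex deletion. Over loci above 0 in all 3 genotypes, 112 were higher, 209 lower and 42.2% above 0 in the DCC mutant, and the 8rex deletion had 91 higher, 58 lower and a median of -0.012. No paired analysis was possible because each genotype has 1 pooled column and no replicate could be left out. Of the loci at least 2-fold different in the DCC mutant, 58.7% of the higher and 46.3% of the lower had a mean of at least 5 FPKM.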

Other observations

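Chromosome V also carries genes for short secreted peptides, nlp-24 to nlp-34 and the caenacins (cnc), many of them known for roles in defence of the epidermis; they were grouped here after their values were seen. Of 17 loci, 14 met the minimum, and 9 stood above wild type and 5 below in the DCC mutant, with a median difference of 0.27 on the log2(FPKM + 1) scale. In the 8rex deletion 2 stood above and 11 below, with a median of -0.24; both comparisons use the same wild-type value. Over all V members 38.7% stood above wild type in the DCC mutant and 47.8% in the 8rex deletion. A locus passes the minimum more easily where a genotype is high, so these counts support no direction. The locus cnc-7, at 0, 0 and 6.44 FPKM, passed only through the DCC mutant. Besides cnc-4, the left-arm gene nlp-34 had 12.7 FPKM in wild type, 5.26 in 8rex deletion embryos and 43.4 in DCC mutant embryos. In the same cluster nlp-27 stood at 22.5, 17.2 and 49.0 FPKM and nlp-28 at 6.99, 7.64 and 1.25 FPKM. In a separate left-arm cluster, that of cnc-4, cnc-2 stood at 1.22, 0.778 and 22.4 FPKM and cnc-3 at 147, 131 and 106 FPKM. In the centre nlp-24 stood at 182, 146 and 332 FPKM. For the DCC mutant the authors' deposited table gave p = 0.184 for nlp-34, 0.301 for nlp-27, 0.107 for nlp-24 and 0.415 for cnc-3, and cnc-2 and nlp-28 were not tested. The locus joining nlp-25 and grsp-1 in the right arm stood at 56.5, 53.5 and 19.5 FPKM, and the authors' deposited table gave p = 0.0154 for its DCC mutant difference.

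Neighbouring loci with an authors' p under 0.05 in the DCC mutant were also listed after their values were seen. Among the 43, 5 adjacent pairs lay within 20 kb of each other, and 3 pairs differed in opposite directions. On the left arm icl-1 was lower and the locus of srh-2 and C05E4.16, 226 bases away, was higher. cnc-4 was higher and srj-23, 3926 bases away, lower. In the centre clec-230 was higher and ech-1.1, 8519 bases away, lower, whereas C56A3.8 and bir-2, 6856 bases apart, were both higher.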
